A study of Homo sapiens with 9 samples.

Results

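The genes described here are 9 human complement genes of PC3 xenografts, namely CFD, C3, CFB, CFI, C1R, C1S, SERPING1, CD55 and CD59. They were selected by gene name with earlier results of these data known, and all 9 were found among the 16008 genes listed in both deposited count tables. PC3 is a human prostate cancer cell line, and the tumors were grown under the skin of male NSG mice, which lack T, B and NK cells but keep mouse fibroblasts, vessels and macrophages. The groups were 3 libraries from mice given PBS as vehicle, 3 libraries titled P-DXd and 3 titled T-DXd. P-DXd (patritumab deruxtecan) is an antibody conjugate designed against HER3 and T-DXd (trastuzumab deruxtecan) one designed against HER2, and both deliver deruxtecan, a topoisomerase I inhibitor. Both were injected weekly at 5 mg/kg. The series record gives mice of 11 weeks, tumors of 90 mm3 at the start and 5 cycles, whereas the methods of the study give 10 weeks, about 100 mm3 and 4 cycles. The treatment field of each treated sample names the other conjugate than its title does, so each group carries the name in its titles (P-DXd-titled, T-DXd-titled), and the 6 treated libraries were also compared with PBS as 1 group.

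Complement is a cascade of proteases that marks surfaces with fragments of C3 and can end in a membrane attack complex. Its classical pathway starts when C1q binds antibody and the proteases C1r and C1s become active, and its alternative pathway runs through factor B and factor D, which build a C3 convertase. Host cells limit the cascade with soluble inhibitors, such as factor I and C1 inhibitor, and with CD55 and CD59, which a glycosylphosphatidylinositol (GPI) anchor holds at the cell surface. Much of plasma complement is made in the liver, but epithelial tumor cells and stromal cells also transcribe complement genes.

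Total counts over the genes in both tables lay between 54480915 and 125538301, with the PBS libraries (90761520 or more) deeper than the treated ones (83720853 or fewer). Levels are counts scaled to library size (CPM) with sizes adjusted by the trimmed mean of M values (TMM), with mean ± SD and n = 3 per group. Changes are given on the log2 scale with the standard error (SE). The SE was derived from the edgeR test named below, as the absolute log2 fold change divided by the square root of its F statistic. A gene was called at an adjusted p of at most 0.05 with a fold change of at least 1.5 in edgeR's quasi-likelihood test over the whole table. For the 9 genes, which were chosen by results of these comparisons, changes and calls are a description and no p is given. The further gene lists were also chosen with earlier results known, so an adjusted p given for their genes is not an independent test. The labels do not state that the libraries are separate animals beyond an animal code in each title, so the tests measure the spread between these libraries. In bulk tumor tissue, fewer cells of a type and less RNA per cell cannot be told apart, and the tables do not tell human reads from mouse reads that match a human gene.

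CFD, C3 and CD59 were higher and CFI lower under both treatments than with PBS. Of the 9 genes, 4 were called in P-DXd-titled xenografts, where 25.0% of all genes tested were called, 11.2% higher and 13.8% lower. In T-DXd-titled xenografts 5 were called, the same 4 and C1S, with a background of 28.6%, 13.1% higher and 15.5% lower. With all 6 treated libraries against PBS 6 were called, with SERPING1 added, and the background was 32.2%, 15.2% higher and 17.1% lower. The lowest and highest values left no overlap between the 6 treated and the 3 PBS libraries for 6 of the 9 genes (CFD, C3, CFI, C1S, SERPING1 and CD59), as for 50.6% of all genes tested. The median log2 fold change of the 9 genes was 0.83 in the P-DXd-titled and 0.78 in the T-DXd-titled xenografts, and that of all genes tested was -0.0053 and -0.019.

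**Figure D1:**
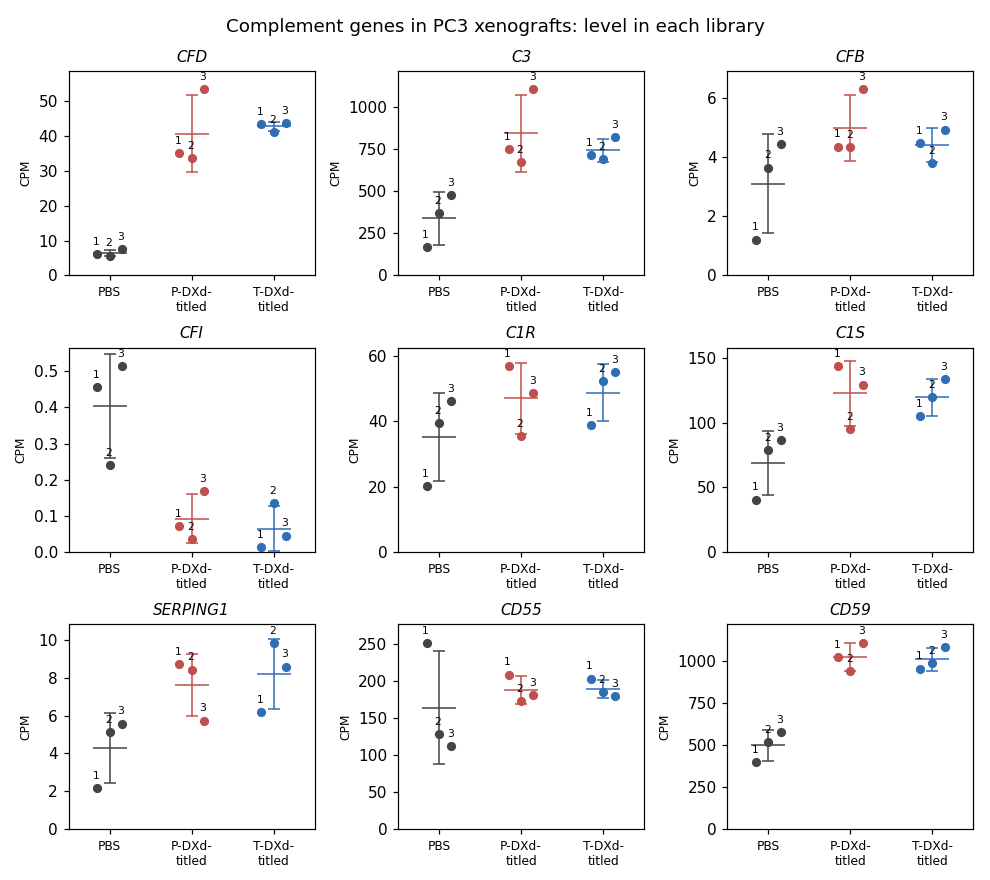
Level of each of the 9 genes in CPM (vertical axes from 0, each gene on its own scale) in 3 PBS, 3 P-DXd-titled and 3 T-DXd-titled libraries. Points are libraries marked with their replicate number, the long dash is the group mean and the bar is 1 SD; the treated libraries lie at 33.6 to 53.4 for CFD and 939 to 1105 for CD59, above every PBS library.

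The alternative pathway genes were examined first. CFD (ENSG00000197766.3; chromosome 19, 859453 to 863453 on the build of the tables, which they do not name) encodes factor D, also called adipsin, the protease that cleaves factor B. CFD was at 6.16, 5.67 and 7.52 CPM in PBS replicates 1 to 3, at 35.1, 33.6 and 53.4 in the P-DXd-titled libraries and at 43.4, 41.2 and 43.6 in the T-DXd-titled libraries. All 6 treated libraries were thus far above all PBS libraries, and replicate 3 of the P-DXd-titled group was the highest. The log2 fold change was 2.65 (SE 0.22) in the P-DXd-titled and 2.71 (SE 0.13) in the T-DXd-titled xenografts, a 6.28-fold and a 6.54-fold difference. It stayed called whichever single library was left out, with log2 fold changes of 2.41 to 2.83.

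C3 (ENSG00000125730.12; chromosome 19, 6677715 to 6730573) encodes the central protein on which all pathways converge. C3 was at 168, 369 and 479 CPM in PBS, at 754, 676 and 1108 in the P-DXd-titled and at 719, 693 and 823 in the T-DXd-titled libraries. The groups did not overlap, but the PBS libraries themselves spanned more than the T-DXd-titled ones. The log2 fold change was 1.31 (SE 0.37) in the P-DXd-titled and 1.12 (SE 0.34) in the T-DXd-titled xenografts. In each of these comparisons the call was kept without PBS replicate 1 or 3 and lost without PBS replicate 2 or any 1 of the treated libraries, with log2 fold changes of 0.99 to 1.64 and 0.80 to 1.45. The labels do not say what the first digit of the animal code stands for. With a block on it, the log2 fold change of C3 was 1.02 and not called in T-DXd-titled xenografts. Over all 6 treated libraries it was higher by a log2 fold change of 1.21 (SE 0.28), and it was called without any 1 of the 9 libraries.

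CFB (ENSG00000243649.4; chromosome 6, 31895475 to 31919861) encodes factor B, which supplies the catalytic part of the alternative convertase. It was at 1.21, 3.65 and 4.44 CPM in PBS, at 4.36, 4.34 and 6.30 in the P-DXd-titled and at 4.48, 3.80 and 4.94 in the T-DXd-titled libraries. PBS replicate 3 overlapped the treated libraries, and PBS replicate 1 was the lowest of all. The log2 fold changes were 0.68 (SE 0.45) and 0.49 (SE 0.44), and the gene was called in none of the comparisons with PBS. There were 116 ± 20.1 counts of C3 per count of CFB in PBS, 168 ± 10.8 in the P-DXd-titled and 170 ± 11.3 in the T-DXd-titled xenografts (SD, n = 3 each), and the treated range of 156 to 182 lay above the PBS libraries.

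To show the sequence in front of these genes, the 250 bases before the RefSeq start site were read from RefSeq promoters of build GRCh38.p14 and searched on both strands for TTCNNNGAA (STAT), GAAANNGAA (interferon-stimulated response element), GGNNTTTCC (NF-kB), TTGCNNAA (C/EBP) and, for the TATA box, TATAAA, with overlaps allowed. Sequence was found for 6 of the 9 genes and not for C3, C1S and SERPING1. It is given here for CFD, which differed most, and CFB, and further below for C1R and CD55. Of the genes not shown, CFI held none of the letters. CD59, with several start sites, held the STAT letters in some windows and the C/EBP letters in another. Of 35116 promoters of this length, 6.57% held the STAT letters, 6.88% the interferon letters, 5.48% those of NF-kB, 9.05% those of C/EBP and 10.7% the TATA box. CFD (chr19:859414-859663, plus strand) held none of these letters. CFB (chr6:31945845-31946094, plus strand) held, in capitals from 5′ to 3′, the interferon letters on the minus strand at -139 to -131, the STAT letters at -92 to -84 and the TATA box at -30 to -25 from the start site. A match is a description of letters only. The windows shown were chosen by expression, and whether the letters bear on expression was not tested.
CFD: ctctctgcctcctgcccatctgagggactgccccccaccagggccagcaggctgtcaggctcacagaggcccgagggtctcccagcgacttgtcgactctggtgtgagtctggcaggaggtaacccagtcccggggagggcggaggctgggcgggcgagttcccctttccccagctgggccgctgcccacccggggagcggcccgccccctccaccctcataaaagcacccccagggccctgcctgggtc
CFB: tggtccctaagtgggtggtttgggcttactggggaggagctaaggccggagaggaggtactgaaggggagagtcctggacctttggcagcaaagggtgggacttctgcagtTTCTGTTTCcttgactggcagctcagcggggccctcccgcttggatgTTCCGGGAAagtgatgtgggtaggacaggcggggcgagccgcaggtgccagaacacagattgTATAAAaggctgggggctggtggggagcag

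The proteases of the classical pathway were next. C1R (ENSG00000159403.11; chromosome 12, 7187513 to 7245203) and C1S (ENSG00000182326.10; chromosome 12, 7096351 to 7178336) lie side by side and encode the proteases of the C1 complex, in which C1r activates C1s. C1R was at 20.1, 39.5 and 46.0 CPM in PBS, at 56.8, 35.4 and 48.7 in the P-DXd-titled and at 38.8, 52.2 and 55.0 in the T-DXd-titled libraries, so PBS replicates 2 and 3 lay within the treated range. Its log2 fold changes were 0.41 (SE 0.31) and 0.45 (SE 0.29), and it was called in none of the comparisons with PBS. C1S was at 40.7, 79.1 and 86.5 CPM in PBS, at 143.7, 95.0 and 129.5 in the P-DXd-titled and at 104.9, 120.1 and 133.7 in the T-DXd-titled libraries, without overlap between treated and PBS. Its log2 fold change was 0.83 (SE 0.29) in P-DXd-titled and 0.78 (SE 0.26) in T-DXd-titled xenografts, and edgeR called only the second. In P-DXd-titled xenografts it was called by DESeq2, in 1 fit of all 9 libraries and without PBS replicate 3. Among fits without 1 library, the T-DXd-titled call was kept only without PBS replicate 3. That call was also lost without the count filter and with a block on the first digit of the animal code (0.67). Over all 6 treated libraries it was 0.80 (SE 0.21), called except without PBS replicate 1, where it was 0.54.

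The counts of the pair did not keep 1 ratio, though reads of overlapping genes (given below) may be among these counts. There were 2.02, 2.00 and 1.88 counts of C1S per count of C1R in PBS, 2.53, 2.68 and 2.66 in the P-DXd-titled and 2.70, 2.3 and 2.43 in the T-DXd-titled libraries. The lowest treated ratio, 2.3, was above the highest PBS ratio, and unlike the levels the ratio of PBS replicate 1 was close to those of replicates 2 and 3. RefSeq lists start sites for C1R in 2 windows. Both are shown because C1R and CFB varied together across libraries (below 0 in PBS replicate 1 in the plot across libraries). CD59, whose windows are not shown, varied with CFB as well. Pearson r of log2 CPM with CFB over the 9 libraries was 0.849 for C1R and 0.78 for CD59. With each group centred on its own mean it was 0.799 and 0.939. The upstream window (chr12:7092446-7092695, minus strand) held the C/EBP letters at -106 to -99, and the downstream window (chr12:7091894-7092143, minus strand) held the C/EBP letters at -167 to -160 and the STAT letters at -86 to -78, all in capitals.
C1R upstream: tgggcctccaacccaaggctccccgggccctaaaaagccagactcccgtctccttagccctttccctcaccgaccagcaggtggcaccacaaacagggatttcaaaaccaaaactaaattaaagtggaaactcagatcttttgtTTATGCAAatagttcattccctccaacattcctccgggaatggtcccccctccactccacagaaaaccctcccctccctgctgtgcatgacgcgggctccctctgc
C1R downstream: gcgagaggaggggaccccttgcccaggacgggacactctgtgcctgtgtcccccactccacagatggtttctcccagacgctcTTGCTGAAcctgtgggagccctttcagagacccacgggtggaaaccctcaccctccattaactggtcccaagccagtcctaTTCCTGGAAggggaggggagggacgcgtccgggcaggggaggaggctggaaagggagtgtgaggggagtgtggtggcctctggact

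Soluble inhibitors differed in direction. CFI (ENSG00000205403.8; chromosome 4, 110661852 to 110723335) encodes factor I, the protease that inactivates C3b and C4b. It had 41, 31 and 58 counts in PBS, 6, 2 and 11 counts in the P-DXd-titled and 1, 10 and 3 counts in T-DXd-titled libraries, which is 0.404 ± 0.144 CPM against 0.0922 ± 0.0678 and 0.0650 ± 0.0629 (SD, n = 3 each). Every treated library was below every PBS library, at counts so low that 1 treated library rested on 1 read. The log2 fold change was -2.10 (SE 0.62) in the P-DXd-titled and -2.61 (SE 0.72) in the T-DXd-titled xenografts. In P-DXd-titled xenografts the call was kept without PBS replicate 1 or P-DXd-titled replicate 3 and lost without any other library. In T-DXd-titled xenografts it was lost without PBS replicate 3 or T-DXd-titled replicate 1 or 3, and without T-DXd-titled replicate 2 the log2 fold change was -3.74.

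SERPING1 (ENSG00000149131.11; chromosome 11, 57364860 to 57382326) encodes C1 inhibitor, which blocks C1r and C1s. It was at 2.16, 5.13 and 5.58 CPM in PBS, at 8.73, 8.44 and 5.74 in the P-DXd-titled and at 6.18, 9.85 and 8.60 in the T-DXd-titled libraries. The lowest treated library was just above the highest PBS library. The log2 fold changes were 0.83 (SE 0.37) and 0.92 (SE 0.37), neither called by edgeR. The second was called by DESeq2, in 1 fit of all 9 libraries, and at 0.60 (SE 0.18) without PBS replicate 1. For all 6 treated libraries it was 0.86 (SE 0.29), called except without PBS replicate 1, where it was 0.56 (SE 0.20).

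The membrane regulators CD55 and CD59 differed from each other. CD59 (ENSG00000085063.10; chromosome 11, 33719807 to 33757991) encodes protectin, which blocks the membrane attack complex. CD59 was at 398, 517 and 576 CPM in PBS, at 1024, 939 and 1105 in the P-DXd-titled and at 953, 988 and 1081 in the T-DXd-titled libraries, with a wide gap between treated and PBS. The log2 fold change was 1.03 (SE 0.15) in the P-DXd-titled and 1.00 (SE 0.14) in the T-DXd-titled xenografts, close to 2-fold, and the call was kept whichever single library was left out. CD55 (ENSG00000196352.9; chromosome 1, 207494853 to 207534311) encodes decay-accelerating factor, which takes C3 convertases apart. CD55 was at 251, 128 and 112 CPM in PBS, at 209, 173 and 180 in the P-DXd-titled and at 203, 185 and 180 in the T-DXd-titled libraries. PBS replicate 1 was the highest of the 9 libraries and PBS replicates 2 and 3 were the lowest. The log2 fold changes were 0.18 (SE 0.30) and 0.19 (SE 0.30), not called. The counts of CD59 per count of CD55 were 1.58, 4.03 and 5.14 in PBS and 4.69 to 6.13 in the treated libraries, which overlapped. The 250 bases before the RefSeq start of CD55 (chr1:207321428-207321677, plus strand) held none of the letters searched. They are given because CD55 was highest in PBS replicate 1, where C3, CFB, C1R, C1S, SERPING1 and CD59 were lowest.
CD55: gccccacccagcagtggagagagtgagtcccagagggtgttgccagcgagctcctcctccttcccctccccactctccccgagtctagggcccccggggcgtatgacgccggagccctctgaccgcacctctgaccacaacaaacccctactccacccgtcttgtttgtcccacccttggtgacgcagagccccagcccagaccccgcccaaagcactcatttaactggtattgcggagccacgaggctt

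One PBS library decided several of these values. The mean of PBS replicates 2 and 3 was higher than PBS replicate 1 by 3.34-fold for CFB, 2.52-fold for C3, 2.48-fold for SERPING1, 2.13-fold for C1R and 2.04-fold for C1S. It was 1.37-fold for CD59 and 1.07-fold for CFD, and for CD55 it was 0.478-fold, so CD55 was lower in replicates 2 and 3. These directions were the same with relative log expression (RLE) factors and with total counts as scaling. Of 12472 genes that averaged 100 or more counts, 15.4% were at least 1.5-fold and 6.62% at least 2-fold higher in replicates 2 and 3 than in replicate 1, and 9.91% were at least 1.5-fold lower. Without PBS replicate 1 the log2 fold change of CD55 became 0.63 (SE 0.11) in the P-DXd-titled and 0.64 (SE 0.077) in the T-DXd-titled xenografts, and it was called in both. In the same fits C1S was at 0.56 (SE 0.16) and 0.52 (SE 0.091) and was not called, CFB was at 0.30 and 0.11, and C1R was at 0.13 and 0.18. CFD was at 2.62 and 2.69 and CD59 at 0.90 and 0.87.

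**Figure D2:**
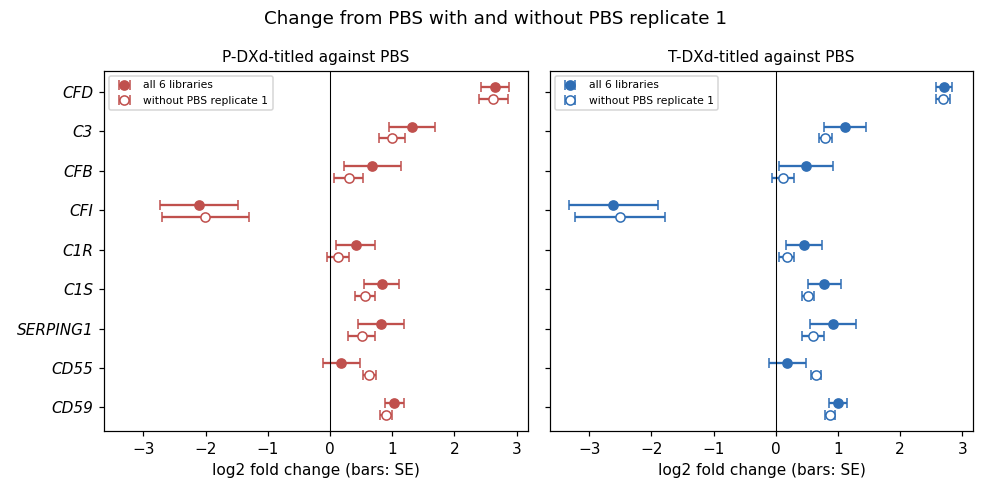
Log2 fold change from PBS (horizontal axis, 0 at the black line) of the 9 genes in P-DXd-titled xenografts on the left and T-DXd-titled xenografts on the right, with filled circles for all 6 libraries, open circles for the fit without PBS replicate 1 and bars of 1 SE. CFD stays near 2.7 in both fits, CD55 moves from about 0.18 to 0.63 on the left, and the SE of most genes is smaller without PBS replicate 1.

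Across the 9 libraries C3, CFB, C1R, C1S and SERPING1 varied together, with Pearson r of log2 CPM from 0.778 to 0.952 over their 10 pairs. With each group centred on its own mean the range was 0.592 to 0.988. CD55 correlated with these 5 genes at -0.44 to -0.098, and at -0.927 to -0.755 after centring. CD59 varied with the same 5 genes too, with r from 0.742 to 0.951, and from 0.666 to 0.972 after centring. Between CD59 and CD55 r was 0.17, and -0.854 after centring. These values describe 9 libraries that share their scaling and PBS replicate 1, and they are not tests. Among 12464 other genes that averaged 100 or more counts, the one most like each gene over the 9 libraries was SLAIN1 for CFD (r = 0.996), AGRN for C3 (r = 0.994), GPC6 for CFB (r = 0.988), OAS3 for CFI (r = 0.974), CALCOCO2 for C1R (r = 0.984), TMBIM1 for C1S (r = 0.992), SEC22C for SERPING1 (r = 0.983), SLC7A8 for CD55 (r = 0.972) and ATP6V0E1 for CD59 (r = 0.998). CFI itself did not reach that average, with 1 to 58 counts per library, so its r rests on few reads.

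**Figure D3:**
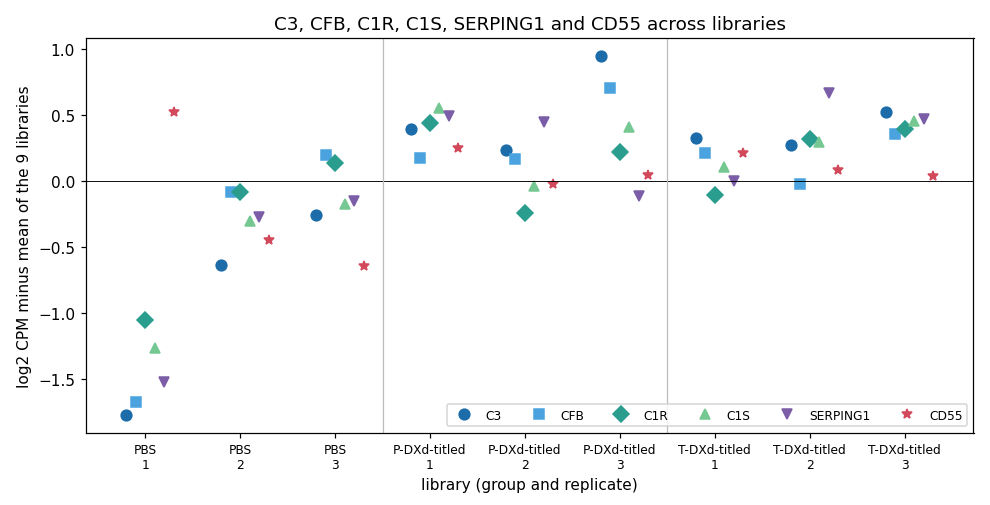
Log2 CPM of C3, CFB, C1R, C1S, SERPING1 and CD55, each minus its own mean over the 9 libraries (vertical axis), by library (horizontal axis). In PBS replicate 1 the stars of CD55 lie above 0 and the other 5 genes lie more than 1 log2 unit below it.

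Levels were compared between genes per kilobase of the canonical transcript, an Ensembl choice listed in GENCODE v44. In PBS the order of mean CPM per kilobase was CD59 at 65.7 ± 12, C3 at 64.8 ± 30.1 and CD55 at 63.3 ± 29.4, which did not differ beyond their spread, then C1S at 25.6 ± 9.17, C1R at 14.2 ± 5.42, CFD at 5.42 ± 0.802, SERPING1 at 2.34 ± 1.02, CFB at 1.25 ± 0.680 and CFI at 0.204 ± 0.0728 (SD, n = 3 each). C1S and C1R differed by less than the sum of their SDs. In P-DXd-titled xenografts C3 was at 162 ± 44 and CD59 at 135 ± 11.0, which did not differ beyond their spread, then CD55 at 72.3 ± 7.29, and CFD at 34.2 ± 9.24 was above C1R at 18.9 ± 4.33, whereas in PBS it was below C1R. In T-DXd-titled xenografts the order was the same, with C3 at 142 ± 13.2 and CD59 at 133 ± 8.78, within their spread.

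The titled conjugates were then compared with each other. Of the 9 genes 8 were tested, CFI being too low, and edgeR called none of them (0), with 0 at an unadjusted p under 0.05 and 0 calls by DESeq2, while 0.0273% of all genes tested were called. The log2 differences, P-DXd-titled minus T-DXd-titled, ranged from -0.10 for SERPING1 (SE 0.20) to 0.18 for C3 (SE 0.16). This does not show equal levels, and the size of the SE leaves room for small differences. Of 24 other complement genes tested 0 were called by edgeR or DESeq2, and 2 had an unadjusted p under 0.05, COLEC10 and ITGB2, both chosen here after their values were seen.

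The rest of the pathway was read from a list of 53 further complement genes, of which 34 had a row in at least 1 table. In P-DXd-titled xenografts 7 of 24 tested were called, 5 higher and 2 lower, beside 25.0% of all genes tested. In T-DXd-titled xenografts 8 of 27 were called, 5 higher and 3 lower, beside 28.6%. With all treated libraries 11 of 27 were called, 8 higher and 3 lower, beside 32.2% (15.2% higher and 17.1% lower). The first 2 shares were near those of all genes, and no share was tested against that of all genes. With at least 10 counts required in every library, 7 were called over all treated libraries. The median log2 fold change in the last comparison was 0.60, and that of all genes tested was -0.014.

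Among the classical and lectin genes, MASP2, a protease of the lectin pathway, fell in both treated groups. It was at 2.07, 1.41 and 1.28 CPM in PBS and at 0.259 to 0.690 in treated libraries, with a log2 fold change of -1.98 (SE 0.41, adjusted p = 0.0121) in the P-DXd-titled and -1.54 (SE 0.32, adjusted p = 0.0101) in the T-DXd-titled xenografts by edgeR, and the first call was lost without P-DXd-titled replicate 3. COLEC12, a membrane collectin, rose by 1.75 (SE 0.37, adjusted p = 0.013) and 2.11 (SE 0.30, adjusted p = 0.00254). C1QB, a chain of C1q made mostly by macrophages, had 6, 4 and 2 counts in PBS and 8 to 31 in treated libraries. It rose by 3.02 (SE 0.59, adjusted p = 0.00758) in the T-DXd-titled xenografts. In P-DXd-titled xenografts it was called only in 1 fit of all 9 libraries and without PBS replicate 1. Over all treated libraries C1QB was called whichever single library was left out. The soluble collectin COLEC10 had 0, 11 and 10 counts in PBS and 15 to 39 in treated libraries, and its log2 fold change over all treated libraries was 2.50 (SE 0.70, adjusted p = 0.0114). C4B rose by 1.17 (SE 0.31, adjusted p = 0.00847) in the same comparison while C4A was at -0.49 (SE 0.30), but these near-identical copies can share reads and both are uncertain. COLEC10 and C4B were also called in P-DXd-titled xenografts, each kept in only 1 of 6 fits without 1 library.

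None of the 6 other alternative and terminal pathway genes tested was called in all treated libraries by edgeR (0 called, 0 at an unadjusted p under 0.05 and 0 by DESeq2). They ranged from -1.37 (SE 0.88) for C9 to 1.45 (SE 0.90) for C7, and C5, the start of the terminal pathway, was at 0.054 (SE 0.32, adjusted p = 0.894).

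Among the regulators, CLU, which encodes clusterin, a soluble inhibitor of the membrane attack complex, rose most clearly. CLU was at 27.4, 20.6 and 14.0 CPM in PBS and at 87.8 to 104.1 CPM in the treated libraries. The log2 fold change was 2.19 (SE 0.24, adjusted p = 0.00193) in the P-DXd-titled and 2.17 (SE 0.24, adjusted p = 0.00113) in the T-DXd-titled xenografts, and the call was kept without any single library. CSMD1, a membrane inhibitor, had 6, 2 and 1 counts in PBS and 5 to 34 in treated libraries, and rose by 3.19 (SE 0.79, adjusted p = 0.00587) over all treated libraries, with 2.76 to 4.31 when any 1 library was left out. It was not tested in P-DXd-titled xenografts, and in T-DXd-titled xenografts its call was lost without PBS replicate 2 or T-DXd-titled replicate 1 or 3. CPN2, a subunit of the carboxypeptidase that trims anaphylatoxins, had 14, 60 and 28 counts in PBS and 3 to 9 in treated libraries, and over all treated libraries fell by 1.93 on the log2 scale (SE 0.51, adjusted p = 0.00843), a call lost without PBS replicate 2. CD46, the membrane cofactor that acts beside CD55, was at 292 ± 58.0 CPM in PBS, 285 ± 28.7 in the P-DXd-titled and 279 ± 1.47 in the T-DXd-titled xenografts (SD, n = 3 each), with a log2 fold change of -0.072 (SE 0.11, adjusted p = 0.602).

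Of 5 receptor genes tested, ITGAM, a chain of complement receptor 3, rose by 1.44 (SE 0.30, adjusted p = 0.00242) over all treated libraries. It was at 0.857, 2.51 and 2.63 CPM in PBS and at 4.52 to 6.39 in treated libraries. C1QBP, a mostly mitochondrial protein that binds C1q, fell by 0.78 on the log2 scale (SE 0.13, adjusted p = 0.000739). It was at 246, 166 and 147 CPM in PBS and at 103.8 to 116.4 in treated libraries, and it was not called without PBS replicate 1. Its call in either titled group alone was kept in 2 of 6 fits without 1 library.

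**Figure D4:**
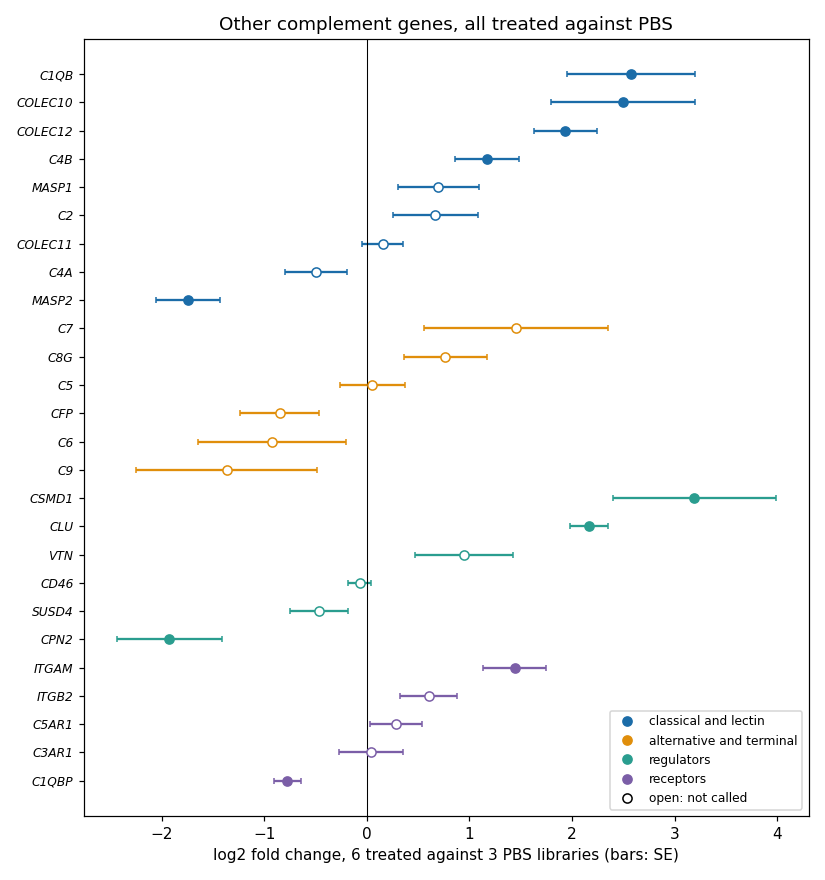
Log2 fold change of 26 other complement genes tested (horizontal axis, bars of 1 SE) in 6 treated against 3 PBS libraries, coloured by role, with filled circles for the 10 genes called among them and open circles for the rest. CLU has a narrow bar near 2.17, the alternative and terminal genes are all open, and CSMD1 and C1QB lie far right with wide bars from few counts.

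Genes around the pathway were read from 4 more lists, over all treated libraries, where 15.2% of all genes tested were called higher and 17.1% lower. The genes named from them were picked by the size of their change, so their values and the counts are a description. Of 13 transcription factors known to act on complement genes 7 were called, all of them higher. CEBPA, a factor of the C/EBP family, rose by 1.87 (SE 0.27, adjusted p = 0.000235). For GPI anchor synthesis, the process that gives CD55 and CD59 their anchor, 3 of 27 genes were higher and 3 lower, both below the shares of all genes, with DPM3 at 1.39 (SE 0.15, adjusted p = 3.48e-05) and PGAP3 at 1.3 (SE 0.18, adjusted p = 0.00016). Of 22 other GPI-anchored proteins 11 were higher and 3 lower, led by CEACAM6 at 5.14 (SE 0.52, adjusted p = 2.6e-05) and FOLR1 at 3.95 (SE 0.27, adjusted p = 4.15e-06). Of 8 acute phase genes 4 were called, all of them higher, with SAA1 at 2.52 (SE 0.20, adjusted p = 6.34e-06) and SAA2 at 2.45 (SE 0.45, adjusted p = 0.000976), which are near-identical and can share reads.

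Markers of other cells moved with treatment as well, and their part in the values above was not tested. Summed macrophage markers were at 5.97 to 9.60 CPM in PBS and 16.5 to 36.6 in treated libraries, with CSF1R and LYZ the most abundant, 4 of 6 tested higher and 1 lower, while CD163, MRC1 and TYROBP were not analysed here. Summed fibroblast markers, led by COL1A1 and COL1A2, were at 1053 to 2020 CPM and 1233 to 2237 CPM, with 5 of 9 higher, and PBS replicate 1 was the highest PBS library. The adipocyte list, relevant to adipsin, was at 62.7 to 104.5 CPM in PBS and 100.2 to 104.2 in treated libraries, mostly PPARG and PLIN4, with 2 of 5 higher, and its defining ADIPOQ and LEP were not analysed here. Hepatocyte markers, led by SERPINA6 and ALB, summed to at most 0.445 CPM in any library, and the 1 tested was not called, so the hepatocyte list was near 0 in every group. Endothelial markers, led by VWF and TEK, were at 5.08 to 9.56 and 5.90 to 10.7 CPM with 1 of 6 higher, and PECAM1 and EMCN were not analysed here. The neutrophil list was at 145 to 608 and 1183 to 1666 CPM with 2 of 3 higher, most of it S100A9 and then S100A8, genes also made by epithelial cells, and MPO and ELANE were not analysed here. Epithelial markers, led by KRT8 and KRT19, were at 1633 to 2335 and 3145 to 3682 CPM with 2 of 5 higher. Skeletal muscle markers, led by ACTA1 and MYH1, were at 1.77 to 43.6 CPM in PBS and 66.8 to 3648 in treated libraries, all 7 being called higher. The highest value was in P-DXd-titled replicate 2 and the lowest treated value in P-DXd-titled replicate 1. In P-DXd-titled xenografts, CD59 and CFD were the 2 of the 9 genes called when either of these libraries, or PBS replicate 2, was left out alone. Whether muscle content bears on these calls was not tested. On the coordinates of the tables, C3 overlaps GPR108, CFB overlaps C2, C1R overlaps C1RL, C1S overlaps LPCAT3 and EMG1, and CD59 overlaps C11orf91. Whether strand was used in counting is not given in the sources used here. Reads in these overlaps thus cannot be told apart, which also limits the ratios of C3 to CFB, C1S to C1R and CD59 to CD55.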

How the data were processed

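The sample titles gave the groups, with 3 libraries each of PBS, P-DXd-titled and T-DXd-titled PC3 xenografts. Per the methods of the study and the submitters' processing notes, the authors used Cutadapt for trimming, STAR for alignment and featureCounts for counting, and the deposited values are raw counts per gene. Removal of mouse reads and use of strand are not given in the sources used here. The methods name GRCh38, but the listed coordinates are not on that build. Each listed gene had at least 5 counts in its second-highest library, so genes below this were not analysed here. PBS counts were identical in both tables, and 0 columns of sample values were left unused. Replicate pairs differed by a chi-square of 17.2 to 388 per gene, so none was a duplicate.

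The 9 genes and all lists were chosen with earlier results of these data known. Genes were tested over each whole table with edgeR 4.0.16 in R 4.3.3 (TMM, filterByExpr with defaults, two-sided quasi-likelihood F test, Benjamini-Hochberg adjustment) and called at an adjusted p of at most 0.05 and a fold change of at least 1.5. Log2 CPM used a prior count of 2. Named beside the 9 genes were every other complement gene called against PBS, the 2 called genes of each further list with the largest change in all treated libraries, the gene most like each of the 9, and the 2 most abundant markers of each cell type with any defining marker that had no row. Alternatives were DESeq2 1.42.0, RLE factors, no filter, no fold minimum, a minimum of 10 counts in each library, glmTreat, 1 fit of all 9 libraries, a block on the first digit of the animal code, and leaving out each library. The scripts were tested on simulated data. The values of 2 genes that the naming rule takes are not reported here.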

Additional observations from a re-analysis of the deposited data

How the results depend on the processing

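Of the log2 fold changes of the 9 genes under the alternatives, 430 moved by less than 1 SD between replicates and 5 moved by more. These include differences between the conjugates, and the SD was pooled over the groups with PBS replicate 1 included. In P-DXd-titled xenografts the fall of CFB from 0.68 to 0.30 without that library thus counts among the 430. There were 21 changes of sign, 0 of them of a called value. Without PBS replicate 3, CD55 changed sign in the 3 comparisons with PBS (to -0.046, -0.028 and -0.039), and the rest were small differences between the conjugates. The 5 that moved by more were CD55 in the 3 comparisons with PBS without PBS replicate 1, CFI in T-DXd-titled xenografts without T-DXd-titled replicate 2, and CFD between the conjugates without P-DXd-titled replicate 3 (-0.32). With glmTreat and a tested fold of 1.5, 2 of the 9 genes (CFD and CD59) were called in either comparison with PBS (2 and 2), and 2 and 5 other complement genes. With the block on the first digit of the animal code, 3 of the 9 genes and 5 other complement genes were called in T-DXd-titled xenografts. C3 and C1S were lost, at 1.02 and 0.67. With at least 10 counts in every library, 7 other complement genes were called in all treated libraries; this filter leaves out genes of few counts. Leaving out 1 library at a time, the 9 genes gave 2 to 5 calls in P-DXd-titled, 2 to 6 in T-DXd-titled and 5 to 7 in all treated libraries, and the other complement genes 2 to 10, 4 to 10 and 11 to 13. Between the conjugates the counts were 0 under every alternative run. No paired analysis was run, because the study randomized mice to vehicle or a conjugate and the labels name no pairs. Depth limits CFI, C1QB, COLEC10, CSMD1 and CPN2 most, which rest on few counts in some libraries.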
